A study of Mus musculus with 10 samples.

Results

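The genes described here encode the chains of the collagens, the main fibrous proteins of the extracellular matrix. They were chosen by name: every gene of the array whose symbol is Col, a type number, the letter a and a chain number, with nothing after it, and with a probe set that carries this symbol alone. The rule found 44 genes among the 22180 genes measured. Where a gene had several probe sets, which was so for 3 members, the one with the highest mean signal was kept. The cells were mouse embryonic fibroblasts (MEFs), the matrix-making cells of connective tissue, which the labels place in dorsal skin of E13.5 embryos, that is, at mid-gestation. The protocol in the labels also speaks of embryos minced after head and organs were taken out, so the tissue of origin is described in 2 ways. Each of 10 samples of total RNA was put on its own one-colour Affymetrix array, 5 of Zbtb4 knock-out (KO) cells and 5 of wild-type (WT) cells. The product of Zbtb4 is a zinc finger protein known for binding DNA that is methylated at CpG sites. The labels give no strain, no passage, no part of Zbtb4 that was deleted and no Cre driver, and they number the arrays 1 to 5 within a genotype without saying that each came from its own embryo. P-values therefore measure only the spread between these samples, which may be technical in part. Zbtb4 itself was at 5.45 ± 0.27 log2 in KO and 6.07 ± 0.11 log2 in WT arrays (SD, n = 5 each), and the genotypes did not overlap, though the difference of -0.62 did not pass over all genes (limma adjusted p = 0.628).

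Collagens are built from chains that wind around each other in a helix, and the chains of a type are usually encoded by separate genes. Fibrillar collagens form the banded fibrils of skin, tendon and bone, network collagens form sheets such as the basement membrane, and beaded filament collagens link cells to the surrounding matrix. FACITs, the fibril-associated collagens with interrupted helices, sit on the surface of fibrils, transmembrane collagens span the cell membrane, and multiplexins lie in basement membranes and carry fragments with effects on vessels. Fibroblasts are the main source of the fibrillar types I, III and V in skin. Collagen types II, IX, X and XI are known chiefly from cartilage, and types VII and XVII anchor the epidermis.

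All values are the deposited log2 expression values, so a difference of 1 is a 2-fold change. Levels of different probe sets depend on their probes, so no gene's level is set against that of another here. Arrays had medians from 3.89 to 3.93, r between any 2 of them was at least 0.981, and no arrays held identical values. The level at which a signal rises above background is not known for these values, and 9 of the 44 members were among the 40% of genes with the lowest means (Col4a3, Col4a4, Col6a4, Col6a5, Col8a2, Col9a1, Col15a1, Col19a1 and Col28a1). The other 35 passed that filter. Of 14 fibroblast markers, 13 were measured, among them the intermediate filament gene Vim, at 12.11 ± 0.039 in KO and 12.14 ± 0.078 in WT arrays (SD, n = 5 each). Their mean log2 level ran from 8.68 to 8.87 over KO arrays and from 8.62 to 9.0 over WT arrays. Some markers varied more than Vim, such as Pdgfra, at 7.08 ± 0.63 in KO and 7.43 ± 0.63 in WT arrays. Lum was at 5.58 ± 0.66 in KO and 5.89 ± 0.74 in WT arrays. Of the 13 markers, 4 had a higher and 9 a lower KO mean. Y-linked genes stood apart on 4 arrays, KO 1 and 3 and WT 1 and 3, with mean levels from 5.89 to 6.42, against 2.49 to 2.78 on the other 6.

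No collagen chain gene passed the test between genotypes. Of 44 members, 0 had a limma adjusted p under 0.05, where 0% of all 22180 genes did, and adjusted p-values ran from 0.821 to 0.999. At an unadjusted limma p under 0.05 there were 2 members, 1 higher and 1 lower in KO cells, against 5.98% of all genes (3.25% higher and 2.73% lower). For 0 members did the arrays of the genotypes lie apart, against 0.987% of all genes (0.541% higher and 0.446% lower). Means were higher in KO cells for 30 members and lower for 14, while 50.7% of all genes had a higher mean, and the median log2 difference was 0.054 over the members and 0.0020 over all genes. With single arrays left out, the median of the members ran from 0.039 without WT array 3 to 0.090 without WT array 2. It was 0.082 without WT array 4. The counts at these thresholds lie near the shares of the whole array, and the split of 30 against 14 was not tested, since genes of the same arrays are not independent. In bulk RNA, fewer cells of a type and less RNA per cell cannot be told apart.

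**Figure D1:**
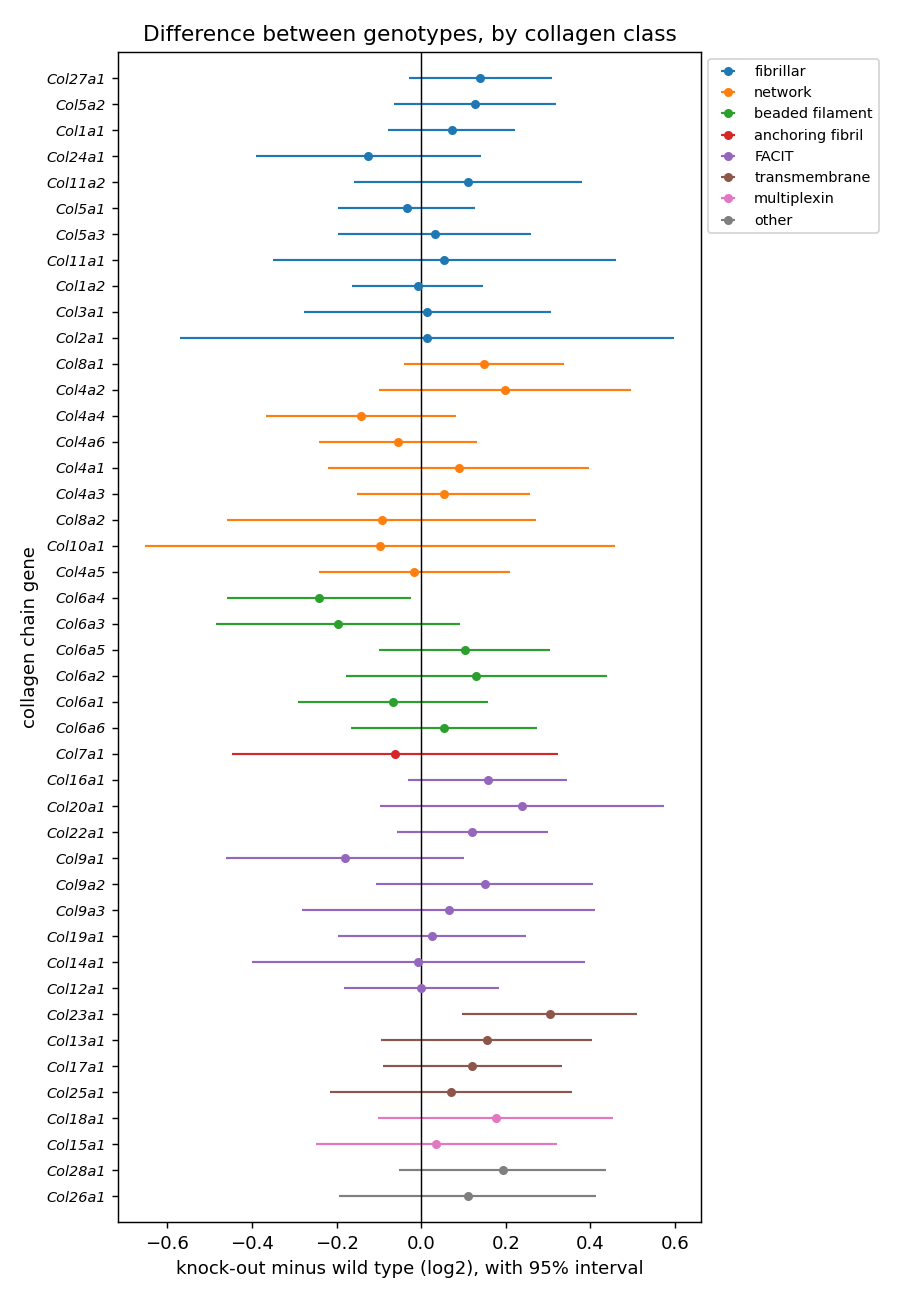
Differences in log2 expression, Zbtb4 KO minus WT, for the 44 collagen chain genes on the horizontal axis, with 95% intervals from limma and colours for the collagen classes (5 arrays per genotype). The points lie between -0.24 for Col6a4 and 0.30 for Col23a1, and the intervals of all members but these genes include 0.

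The intervals are those of single genes, not adjusted over the 44 members. They apply to the array signal of these samples, which can differ from the change in RNA. The 95% interval of the difference lay within 1.5-fold in either direction for 42 of the 44 members, and within 2-fold for all 44. The exceptions at 1.5-fold were Col2a1 and Col10a1. Leaving out a single array moved the difference by over 1.5 times, or turned its sign, for 40 of the 44 members, all but Col6a4, Col16a1, Col23a1 and Col27a1. Such a ratio is easily passed where a difference is near 0, and the count was not made over all genes. Standard errors of the log2 difference had a median of 0.114 over the members and 0.101 over all genes.

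Type I collagen is the chief fibril of skin and bone, a trimer of chains encoded by Col1a1 and Col1a2. Col1a1 (probe set 17255260) was at 10.48, 10.53, 10.49, 10.42 and 10.43 log2 on KO arrays 1 to 5, against 10.47, 10.40, 10.44, 10.43 and 10.26 on WT arrays 1 to 5. Its values lay within a narrow range in the KO, and the genotypes overlapped. The KO minus WT difference, 0.072 (standard error 0.070), had a 95% interval from -0.078 to 0.22 (limma adjusted p = 0.891; exact two-sided permutation p = 0.103). Col1a2 (probe set 17548532) was at 11.68, 11.59, 11.69, 11.60 and 11.56 log2 on KO arrays, against 11.71, 11.72, 11.59, 11.64 and 11.50 on WT arrays. The genotypes overlapped over nearly their whole range. The KO minus WT difference, -0.0084 (standard error 0.072), had a 95% interval from -0.16 to 0.15 (adjusted p = 0.990; exact permutation p = 0.865), so a change beyond 1.12-fold in either direction lies outside the interval.

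Type III and type V collagens build mixed fibrils with type I. Col3a1, the sole chain of type III, was at 9.11, 8.77, 8.95, 9.15 and 8.96 log2 on KO arrays, against 9.17, 9.30, 9.0, 8.91 and 8.49 on WT arrays. The lowest and the highest value both came from WT arrays. The genotypes differed by 0.015 (standard error 0.14; limma adjusted p = 0.991). Col5a1, which encodes the type V chain that limits the width of fibrils, was at 7.92, 8.10, 8.09, 8.17 and 7.97 on KO arrays, against 8.04, 8.14, 8.09, 8.17 and 7.99 on WT arrays. The difference was -0.034 (standard error 0.075, adjusted p = 0.956), and a second probe set of Col5a1 gave -0.20 (standard error 0.13, adjusted p = 0.846 over all probe sets with 1 symbol). Col5a2, its partner chain, was at 8.83, 8.65, 8.72, 8.94 and 8.70 on KO arrays, against 8.77, 8.78, 8.61, 8.63 and 8.43 on WT arrays. The genotypes overlapped in the middle of that range, with a difference of 0.13 (standard error 0.089, adjusted p = 0.853; exact permutation p = 0.175).

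Of all 11 fibrillar chain genes, 8 had a higher and 3 a lower mean in KO cells; the median log2 difference was 0.032, with a range from -0.12 to 0.14. Col11a1 and Col11a2, chains of the minor cartilage fibril, differed by 0.055 and 0.11, Col5a3 by 0.032 and Col24a1 by -0.12 (limma adjusted p = 0.977, 0.905, 0.976 and 0.892). The smallest p-value of the class belonged to Col27a1, a fibrillar chain known from cartilage. It was at 5.42, 5.68, 5.72, 5.49 and 5.63 log2 on KO arrays, against 5.49, 5.45, 5.49, 5.45 and 5.36 on WT arrays. KO arrays 2, 3 and 5 lay above every WT array and KO arrays 1 and 4 among them, and the difference of 0.14 (standard error 0.078) did not pass (limma adjusted p = 0.841; exact permutation p = 0.0873).

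**Figure D2:**
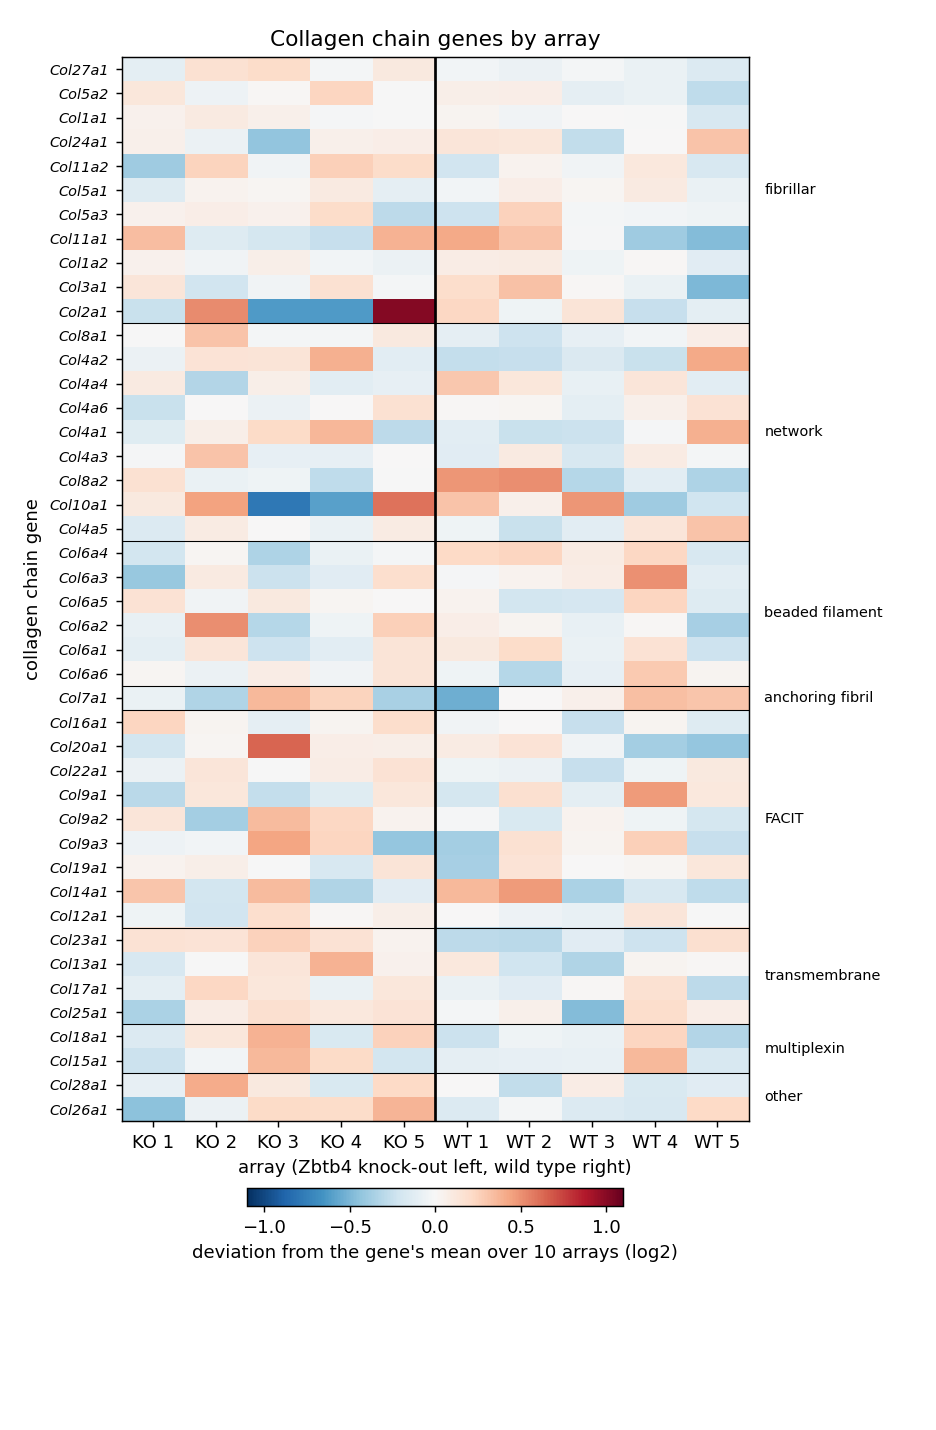
Deviation of each collagen chain gene from its own mean over 10 arrays (log2, colour scale), with KO arrays on the left, WT arrays on the right and genes grouped by class. Col2a1 and Col10a1 show the strongest colours, high on KO arrays 2 and 5 and low on KO arrays 3 and 4, while Col1a1 and Col1a2 stay pale on all arrays.

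The network collagens include the type IV chains of the basement membrane. Col4a1 was at 8.16, 8.36, 8.50, 8.66 and 8.0 log2 on KO arrays, against 8.18, 8.05, 8.06, 8.28 and 8.68 on WT arrays. WT array 5 was the highest of all 10 and the genotypes overlapped, with a difference of 0.089 (standard error 0.14, limma adjusted p = 0.940). Single arrays moved this difference between 0.0086 (without KO array 4) and 0.20 (without WT array 5). Col4a2, whose chain joins that of Col4a1 in the common type IV trimer, was at 6.92, 7.14, 7.14, 7.38 and 6.87 on KO arrays, against 6.73, 6.74, 6.83, 6.75 and 7.41 on WT arrays. All 5 KO arrays lay above WT arrays 1 to 4 and below WT array 5. The difference was 0.20 (standard error 0.14, adjusted p = 0.853; exact permutation p = 0.254), and it came to 0.33 without WT array 5 (adjusted p = 0.632) and 0.13 without KO array 4. On WT array 5 smooth muscle and myofibroblast markers had a mean log2 level of 9.03. The other WT arrays were at 8.63 to 8.82 and KO arrays at 8.81 to 9.08. Further lists set WT array 5 apart from the other WT arrays. Endothelial markers were at 3.85, against 3.52 to 3.73 on the other WT arrays and 3.64 to 3.84 on KO arrays. Skeletal muscle markers were at 4.79, against 4.37 to 4.55 on the other WT arrays and 4.51 to 4.81 on KO arrays. Fibroblast markers were at 8.62, the lowest of all 10. The part of these cells in the values of type IV genes was not tested. Of the 9 network genes, 4 had a higher and 5 a lower mean, with a median of -0.016 and a range from -0.14 for Col4a4, which encodes a chain of specialised basement membranes, to 0.20 for Col4a2. Col4a3, a partner chain of Col4a4, differed by 0.053, and Col4a5 and Col4a6 by -0.016 and -0.054 (adjusted p = 0.946, 0.989 and 0.939). Col8a1 and Col8a2, the chains of the type VIII network, differed by 0.15 and -0.093 (adjusted p = 0.842 and 0.947).

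The promoter windows of Col4a1 and Col4a2 are shown because Zbtb4 is a methyl-CpG binding protein and because these genes start next to each other on opposite strands. The RefSeq windows, of build GRCm38.p6, run from 250 bases before to 50 bases after a gene's start, 5′ to 3′ on the gene's strand. CpG dinucleotides are in capitals. The window of Col4a1 (chr8:11312777-11313076, minus strand) held 37 CpGs at 74.0% GC, and that of Col4a2 (chr8:11312555-11312854, plus strand) held 33 at 73.7% GC. These windows share 78 bases, and the starts lie 21 bases apart.
Col4a1: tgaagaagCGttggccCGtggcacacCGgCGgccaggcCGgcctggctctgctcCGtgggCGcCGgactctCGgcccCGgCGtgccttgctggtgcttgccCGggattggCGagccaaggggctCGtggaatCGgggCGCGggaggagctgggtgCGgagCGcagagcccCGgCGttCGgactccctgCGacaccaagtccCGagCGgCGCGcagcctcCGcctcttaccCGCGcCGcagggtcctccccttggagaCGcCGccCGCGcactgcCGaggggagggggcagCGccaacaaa
Col4a2: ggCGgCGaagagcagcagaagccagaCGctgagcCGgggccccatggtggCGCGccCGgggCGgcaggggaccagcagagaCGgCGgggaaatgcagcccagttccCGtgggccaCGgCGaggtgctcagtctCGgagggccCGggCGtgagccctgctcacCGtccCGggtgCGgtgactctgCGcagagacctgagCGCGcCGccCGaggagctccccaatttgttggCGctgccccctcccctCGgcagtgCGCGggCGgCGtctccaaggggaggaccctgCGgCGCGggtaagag

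The beaded filament collagens went both ways, with 3 of 6 means higher and 3 lower and a median of -0.0063. Col6a1 was at 9.67, 9.91, 9.55, 9.66 and 9.92 log2 on KO arrays, against 9.88, 9.98, 9.70, 9.93 and 9.55 on WT arrays, a difference of -0.066 (standard error 0.10, limma adjusted p = 0.938). A second probe set of Col6a1 gave 0.065 (standard error 0.13), so the sign depends on the probe set. Col6a2 was at 7.34, 7.94, 7.11, 7.38 and 7.69 on KO arrays, against 7.50, 7.46, 7.34, 7.44 and 7.06 on WT arrays, with a difference of 0.13 (standard error 0.14, adjusted p = 0.904), which was 0.018 without KO array 2 and 0.22 without KO array 3. Col6a3, the largest of the common type VI chains, was at 7.67, 8.19, 7.85, 7.96 and 8.27 on KO arrays, against 8.07, 8.13, 8.17, 8.59 and 7.97 on WT arrays. Its difference of -0.20 (standard error 0.13, adjusted p = 0.852) had an interval from -0.49 to 0.093 and was -0.096 without WT array 4. The 3 genes overlapped between genotypes, each with WT array 5 the lowest of its genotype.

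Col6a4, a further type VI chain, had the smallest p-value on the lower side. It was at 3.25, 3.48, 3.11, 3.37 and 3.43 log2 on KO arrays, against 3.67, 3.68, 3.54, 3.68 and 3.28 on WT arrays. Every KO array lay below WT arrays 1 to 4, and WT array 5 lay among the KO values. The KO minus WT difference, -0.24 (standard error 0.10), had a 95% interval from -0.46 to -0.024 (limma unadjusted p = 0.0319, adjusted p = 0.821; exact two-sided permutation p = 0.0476). Col6a4 belonged to the 40% of genes with the lowest means, and it did not enter the fit without them. Its unadjusted p was no longer under 0.05 when KO array 1 or 3, or WT array 1, 2 or 4, was left out. The remaining chains of the family, Col6a5 and Col6a6, differed by 0.10 and 0.054 (adjusted p = 0.882 and 0.949).

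Col23a1, a transmembrane collagen, had the smallest p-value of all members. Its values were 4.99, 4.98, 5.08, 4.99 and 4.87 log2 on KO arrays, against 4.54, 4.53, 4.71, 4.60 and 5.01 on WT arrays. The KO arrays lay close together and above WT arrays 1 to 4, and WT array 5 lay among them. For the smooth muscle and myofibroblast markers too, WT array 5, at 9.03, lay among KO arrays, at 8.81 to 9.08. The other WT arrays were at 8.63 to 8.82. Here, unlike for Col23a1, KO array 1 lay below WT array 4 (8.814 against 8.817). The part of these markers in the value of Col23a1 was not tested. Col23a1 averaged 4.98 ± 0.075 log2 in KO and 4.68 ± 0.20 log2 in WT cells (SD, n = 5 each). The KO minus WT difference, 0.30 (standard error 0.096), had a 95% interval from 0.098 to 0.51 (limma unadjusted p = 0.00722, adjusted p = 0.821; exact two-sided permutation p = 0.0397, a test of 5 against 5 arrays that cannot go below 0.00794). Leaving out single arrays gave differences from 0.27 to 0.39, the highest without WT array 5. The other transmembrane chains, Col13a1, Col17a1 and Col25a1, differed by 0.15, 0.12 and 0.071 (adjusted p = 0.858, 0.868 and 0.948), so that all 4 means were higher. Col17a1 is known from the hemidesmosomes of basal keratinocytes. Of 11 keratinocyte markers, 10 were measured, with mean log2 levels from 4.11 to 4.38 over KO arrays and from 4.02 to 4.16 over WT arrays; their part in the value of Col17a1 was not tested.

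Col3a1, the sole chain of type III, is shown as a contrast to these, since its window (chr1:45311288-45311587, plus strand) held 0 CpGs at 37.7% GC. Col23a1 (chr11:51289670-51289969, plus strand, 24 CpGs) and Col6a4 (chr9:106096642-106096941, minus strand, 5 CpGs) are shown as the members with the smallest p-values in each direction.
Col3a1: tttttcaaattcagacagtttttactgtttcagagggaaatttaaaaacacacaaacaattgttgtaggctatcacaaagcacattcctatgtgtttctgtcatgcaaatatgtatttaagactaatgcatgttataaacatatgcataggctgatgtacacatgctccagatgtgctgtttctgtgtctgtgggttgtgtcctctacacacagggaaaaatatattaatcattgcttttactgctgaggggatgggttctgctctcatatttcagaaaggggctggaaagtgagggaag
Col23a1: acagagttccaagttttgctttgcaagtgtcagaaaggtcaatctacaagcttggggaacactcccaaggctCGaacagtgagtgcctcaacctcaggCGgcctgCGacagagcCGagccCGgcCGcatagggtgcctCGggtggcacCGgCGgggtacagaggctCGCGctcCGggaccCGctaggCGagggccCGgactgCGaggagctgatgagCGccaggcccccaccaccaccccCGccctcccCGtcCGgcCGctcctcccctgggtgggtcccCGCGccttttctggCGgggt
Col6a4: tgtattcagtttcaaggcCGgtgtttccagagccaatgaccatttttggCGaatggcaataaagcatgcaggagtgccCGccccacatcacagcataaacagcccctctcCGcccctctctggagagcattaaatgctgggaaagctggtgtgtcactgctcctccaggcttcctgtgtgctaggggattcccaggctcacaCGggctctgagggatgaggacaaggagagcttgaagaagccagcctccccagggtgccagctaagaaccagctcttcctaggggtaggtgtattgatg

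**Figure D3:**
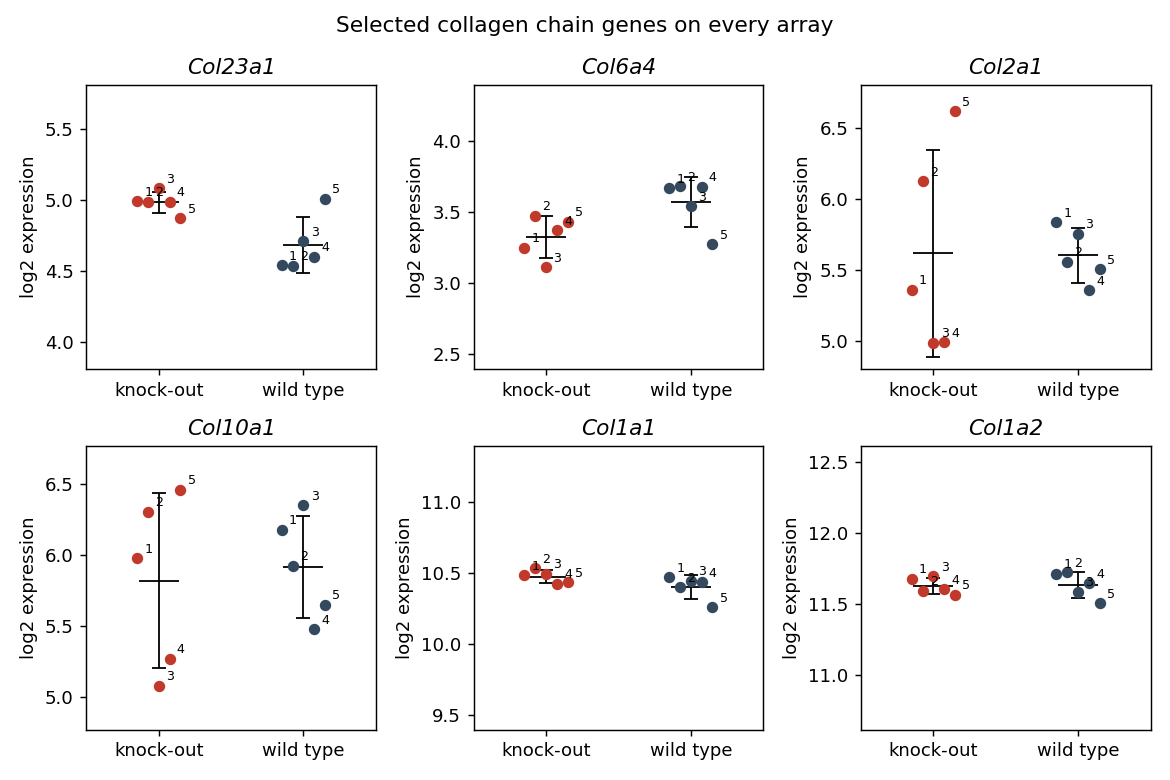
Log2 expression of 6 collagen chain genes on each array (points, numbered by array), with the mean and SD of each genotype (5 arrays each, KO left and WT right); every panel spans the same 2 log2 units. Col23a1 and Col6a4 separate the genotypes but for WT array 5, and Col2a1 spreads from 4.99 to 6.62 within the KO.

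Among the 9 FACIT genes, the mean was higher for 7 and lower for 2, at a median log2 difference of 0.065. Col12a1, a FACIT of type I fibrils, averaged 9.94 ± 0.15 in KO and 9.94 ± 0.084 in WT cells (SD, n = 5 each), and its difference of 0.00072 had a 95% interval from -0.18 to 0.18. Col14a1, a related FACIT, differed by -0.0065 with a wider interval, from -0.40 to 0.39. Col16a1, a FACIT of skin, was at 6.16, 5.95, 5.83, 5.96 and 6.12 log2 on KO arrays, against 5.89, 5.93, 5.68, 5.95 and 5.78 on WT arrays. Its genotypes overlapped, and the difference of 0.16 (standard error 0.087) did not pass (limma adjusted p = 0.841; exact permutation p = 0.0952). Col20a1 differed by 0.24 and came to 0.11 without KO array 3. On that array macrophage and leukocyte markers had a mean log2 level of 5.49. The other KO arrays were at 4.18 to 4.81 and WT arrays at 4.39 to 4.77. In KO means that include KO array 3, 11 of 12 of these markers were higher. Col20a1 had its lowest KO value, 4.31, on KO array 1, where the markers were at 4.80. The part of these markers in the value of Col20a1 was not tested. The type IX genes of cartilage, Col9a1, Col9a2 and Col9a3, differed by -0.18, 0.15 and 0.065, and the FACITs Col19a1 and Col22a1 by 0.026 and 0.12 (adjusted p = 0.855, 0.861, 0.965, 0.982 and 0.852).

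Of the remaining classes, Col7a1, the anchoring fibril chain below the epidermis, differed by -0.061 (limma adjusted p = 0.971). The multiplexin genes Col15a1 and Col18a1, the second of which holds the endostatin fragment, differed by 0.036 and 0.18 (adjusted p = 0.979 and 0.857). Endothelial markers had mean log2 levels from 3.64 to 3.84 over KO arrays and from 3.52 to 3.85 over WT arrays. Their part in the values of type IV and multiplexin genes was not tested. Col26a1 and Col28a1, which belong to none of these classes, differed by 0.11 and 0.19 (adjusted p = 0.921 and 0.842).

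The members varied more between arrays of a genotype than the typical gene. The SD within genotypes had a median of 0.195 log2 over the 44 members and of 0.162 over all genes. It lay above the upper quartile of all genes, 0.215, for 20 members and below the lower quartile, 0.122, for 6. The steadiest were Col1a1 at 0.068, Col1a2 at 0.076 and Col5a1 at 0.087. The most variable were Col2a1 at 0.53 and Col10a1 at 0.51, which were singled out after their values were seen. In the gene lists used here, Y-linked genes aside, the median SD ran from 0.131 for hydroxylation, folding and export to 0.344 for macrophage and leukocyte markers. For fibroblast markers it was 0.231, so such a spread is not particular to collagen genes.

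Col2a1, the main fibril of cartilage, was at 5.36, 6.13, 4.99, 4.99 and 6.62 log2 on KO arrays, against 5.84, 5.56, 5.76, 5.36 and 5.51 on WT arrays. KO arrays 5 and 2 were the highest of all 10 and KO arrays 3 and 4 the lowest, so the WT lay inside the range of the KO. Col10a1, a network collagen of hypertrophic cartilage, was at 5.98, 6.31, 5.08, 5.27 and 6.46 on KO arrays, against 6.18, 5.92, 6.35, 5.48 and 5.65 on WT arrays. It was high and low on the same KO arrays as Col2a1. Their differences between genotypes were 0.014 with an interval from -0.57 to 0.60 and -0.097 with an interval from -0.65 to 0.46 (limma adjusted p = 0.996 and 0.967). The 10 cartilage markers had mean log2 levels from 4.0 to 4.31 over KO arrays and from 3.92 to 4.14 over WT arrays, with 7 of 10 means higher in KO cells. Single markers went different ways. Sox6, a partner of Sox9 in cartilage, was at 4.40, 4.38, 3.88, 3.77 and 4.86 on KO arrays, against 4.51, 4.21, 4.12, 3.72 and 3.70 on WT arrays, so KO array 5 was high and KO arrays 3 and 4 low, as for Col2a1. Comp, a cartilage matrix gene, stood at 4.87 on KO array 5, against 3.34 to 3.71 on the other KO arrays, and Sox5 was highest on KO array 5, at 5.02, and lowest on KO array 3, at 4.15. Sox9, the regulator of cartilage formation, was at 7.0, 6.73, 6.55, 6.73 and 6.76 on KO arrays, highest on KO array 1. Acan, the aggrecan gene, was highest on KO array 1, at 5.53, and lowest on KO array 2, at 4.18. Chad, the marker of the list with the smallest p-value, averaged 3.71 log2 in KO and 3.41 in WT arrays and differed by 0.30 (adjusted p = 0.821). The part of cartilage cells in these values was not tested.

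Chains that assemble together, and the neighbours Col3a1 and Col5a2, were then compared across arrays, as deviations of each array from the mean of its genotype. Over 8 pairs of chains, permutation tests within genotype were adjusted over the pairs, and 4 passed. The arrays share their labelling and normalization, the sources used here give no batches, and the labels do not say that they are independent embryos. Over all 946 pairs of the 44 members the median r was 0.060, with quartiles of -0.23 and 0.33, which is given as a description.

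The neighbouring genes Col3a1 and Col5a2, with 0 coding genes between them on chromosome 1, had the closest relation. Pearson's r was 0.94 (permutation p = 0.00034, adjusted 0.00272) and Spearman's rho 0.88 (permutation p = 0.00098, adjusted 0.00784), over 10 arrays. WT array 5 was the lowest of both genes and WT array 2 among the highest, and without these arrays, the farthest from the median of Col3a1, r was 0.91. Among the 22179 other genes, Col5a2 ranked 5 by its r with Col3a1, and Col3a1 ranked 3 by its r with Col5a2.

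Col6a1 and Col6a2, also direct neighbours, on chromosome 10, had r = 0.89 (permutation p = 0.00158, adjusted 0.00632) and rho = 0.89 (permutation p = 0.00225, adjusted 0.00900), and r = 0.80 without the 2 farthest arrays. Col6a1 and Col6a3, which lie on chromosomes 10 and 1 and encode chains of the same trimer, had r = 0.68 (permutation p = 0.0501, adjusted 0.0802) and rho = 0.62 (permutation p = 0.0799, adjusted 0.128), a relation that did not pass, and r = 0.61 without the 2 farthest arrays. It passed with all probe sets of a gene averaged, where r was 0.80 (adjusted p = 0.0224).

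Col4a1 and Col4a2 had r = 0.91 (permutation p = 0.00351, adjusted 0.00936) and rho = 0.82 (permutation p = 0.0108, adjusted 0.0289). Without WT array 5 and KO array 4, the farthest of Col4a1, r was 0.74, and without WT array 5 alone r was 0.86 and the relation no longer passed (adjusted p = 0.102). Col4a5 and Col4a6, a pair on the X chromosome, had r = 0.67 (permutation p = 0.0142, adjusted 0.0285), r = 0.78 without the 2 farthest arrays, and a rho of 0.66 that did not pass (permutation p = 0.0352, adjusted 0.0704). The call of this pair was lost without 5 different single arrays, with adjusted p-values from 0.0509 to 0.146.

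Of the 8 pairs tested, those encoded on different chromosomes showed no relation that passed in the main comparison. Col6a1 and Col6a3 passed under quantile normalization and with all probe sets averaged. Col1a1 and Col1a2 had r = 0.63 (permutation p = 0.0959, adjusted 0.128) and rho = 0.36 (permutation p = 0.375, adjusted 0.375), and r was 0.15 without WT array 5 and KO array 4. It was also 0.15 without WT array 5 alone and 0.63 without KO array 4 alone, so the Pearson value rested on WT array 5. Col5a1 and Col5a2 had r = 0.32 (permutation p = 0.374, adjusted 0.374), rho = 0.36 (permutation p = 0.347, adjusted 0.375) and r = 0.26 without the 2 farthest arrays, and single arrays moved r to 0.061 (without KO array 4), 0.077 (without WT array 5) and 0.53 (without KO array 1). Col8a1 and Col8a2, whose chains form the networks of type VIII collagen, had r = -0.43 (permutation p = 0.187, adjusted 0.214), rho = -0.48 (permutation p = 0.182, adjusted 0.243) and r = -0.40 without the 2 farthest arrays. Its r was -0.22 without WT array 2, -0.27 without WT array 5 and -0.60 without KO array 2. High values were not limited to neighbours. Col6a4 and Col6a1, on chromosomes 9 and 10 and not among the tested pairs, had r = 0.93, singled out after the values were seen. Whether neighbouring and distant pairs differ was not tested.

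Within the 6 arrays with low Y-linked genes, 3 of each genotype, r was 0.94 for Col3a1 and Col5a2, 0.89 for Col6a1 and Col6a2, 0.94 for Col4a1 and Col4a2 and 0.65 for Col4a5 and Col4a6. It was 0.70 for Col6a1 and Col6a3, 0.72 for Col1a1 and Col1a2, 0.73 for Col5a1 and Col5a2 and -0.50 for Col8a1 and Col8a2. These 6 arrays include WT array 5. With only that array left out, r was 0.15 for Col1a1 and Col1a2 and 0.077 for Col5a1 and Col5a2. KO array 1, without which r of Col5a1 and Col5a2 was 0.53, is not among the 6. The 4 arrays with high Y-linked genes are too few for a value.

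**Figure D4:**
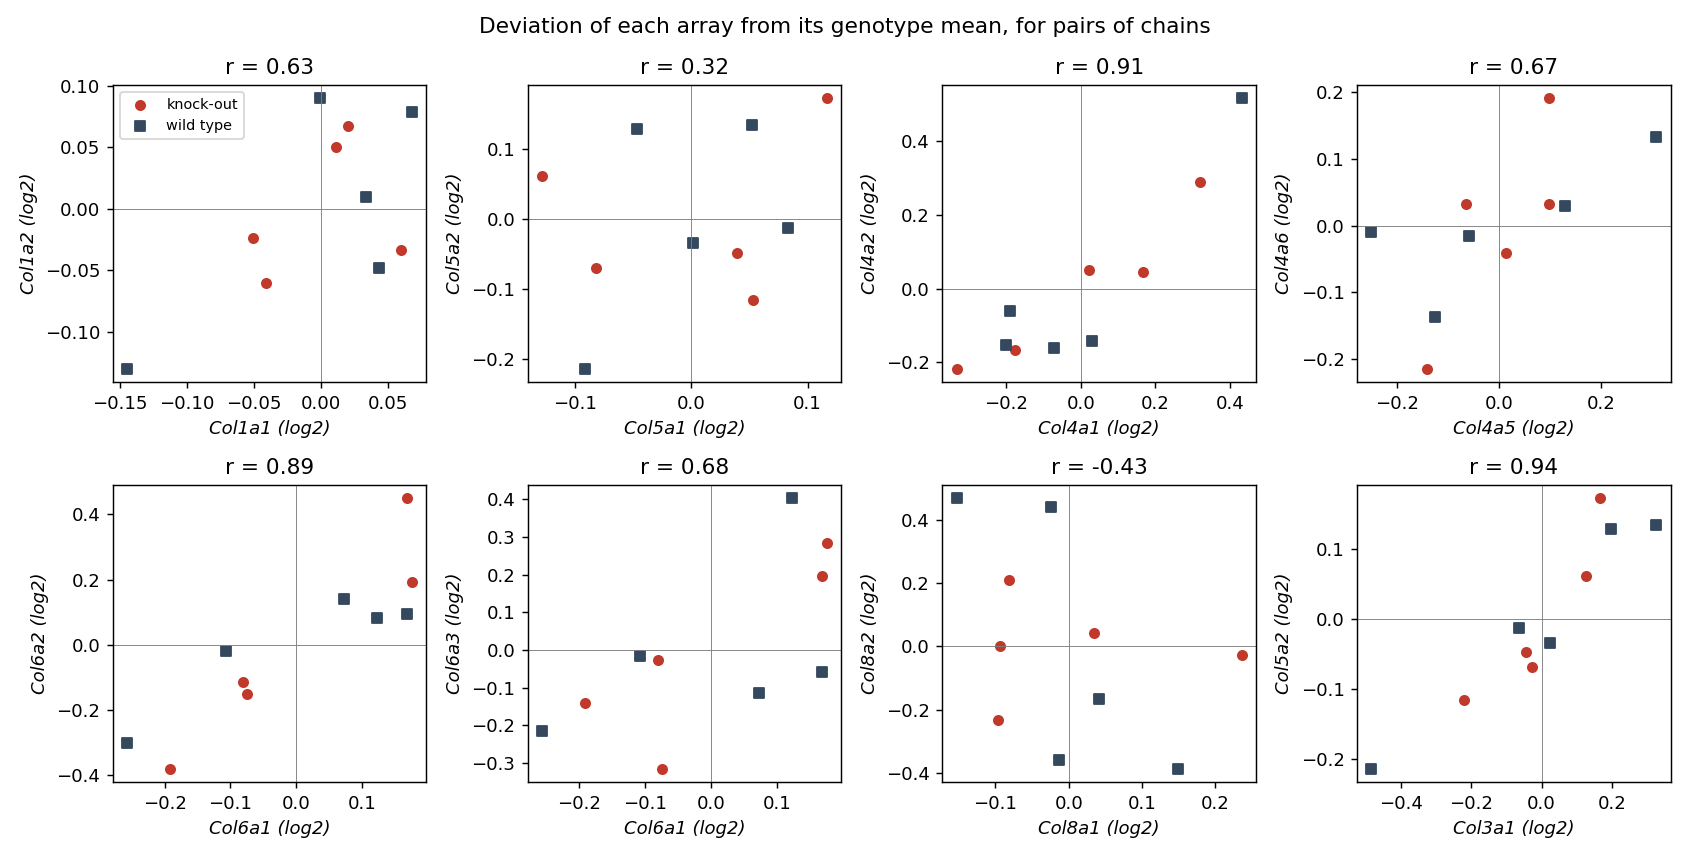
Deviation of each array from the mean of its genotype (log2) for 8 pairs of collagen chain genes, KO arrays as circles and WT arrays as squares, with Pearson's r above each panel (10 arrays). Points follow a rising line for Col3a1 and Col5a2, Col4a1 and Col4a2, and Col6a1 and Col6a2, and scatter for Col5a1 and Col5a2.

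Promoter windows were found for 35 of the 44 members, 38 windows in all, since 3 genes had 2 each. The table's 32851 windows had a median of 7 CpGs and an upper quartile of 20. A count of 20 or more was reached by 9 of the 38 member windows, or 23.7%, and by 26.5% of all windows. The 9 genes with such a window had a median log2 difference between genotypes of 0.089, with 7 higher means, and the 26 other genes one of 0.031, with 15 higher means. The ranges overlapped, from -0.093 to 0.30 and from -0.24 to 0.24, and the split was chosen after the values were seen. The methylation of these windows was not measured here.

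Motifs were searched on both strands. The GC box GGGCGG, which Sp factors bind and which contains a CpG, was present in 23 of 38 member windows, or 60.5%, and in 35.7% of all windows. The box CCAAT was present in 34.2% of member windows and 37.4% of all windows, and the box TATAAA in 13.2% and 13.6%. A match is a match of letters and not a bound site.

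Genes that act on collagen chains did not pass either. Of 20 measured genes of hydroxylation, folding and export, 10 were higher and 10 lower in their KO means, the median log2 difference being -0.0078, and 0 passed over all genes. P4ha2, a subunit of the prolyl hydroxylase that stabilises the helix, averaged 6.67 ± 0.13 in KO and 6.42 ± 0.17 in WT cells (SD, n = 5 each), which differ by 0.25 (limma adjusted p = 0.821). Sec24d, of the vesicle coat that exports procollagen, differed by -0.13 (adjusted p = 0.842), and Colgalt1, which adds galactose to hydroxylysine, by 0.13 (adjusted p = 0.856). Of 11 genes of procollagen processing and crosslinking, 9 were higher in their KO mean, at a median of 0.053. The lysyl oxidase genes Loxl4 and Lox differed by 0.26 and 0.10 (adjusted p = 0.821 and 0.864), and Tll2, a protease of the family that trims procollagen, by 0.10 (adjusted p = 0.881).

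Of 9 collagen receptor genes, 7 were higher in their KO mean, at a median of 0.080. The platelet receptor gene Gp6 differed by 0.29, the receptor kinase gene Ddr2 by -0.14 and the integrin gene Itga11 by 0.17 (limma adjusted p = 0.821, 0.842 and 0.858). Of 8 collagenase and gelatinase genes, 5 were higher in their KO mean, at a median of 0.040. Mmp2 differed by 0.20, Mmp14 by 0.11 and Mmp1b by -0.11 (adjusted p = 0.852, 0.857 and 0.852). Mmp1b averaged 1.77 log2 in KO and 1.88 in WT arrays. These means lie below the lower quartile of every array, 2.68 to 2.72, where signal may not differ from background. Of 15 genes of signalling by TGF-beta, which is known to raise collagen expression in fibroblasts, 10 were higher in their KO mean, at a median of 0.0058. The ligand genes Tgfb3 and Tgfb2 differed by 0.21 and 0.25 and the binding protein gene Ltbp3 by 0.15 (adjusted p = 0.821, 0.823 and 0.841). In these 5 lists, 5 of 63 genes had an unadjusted p under 0.05, 5 higher and 0 lower in KO cells, where 3.25% of all genes were higher and 2.73% lower at that threshold. Gp6, with its low level, is among these 5 genes.

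Marker lists of the cell types that a culture of skin could hold were read beside the collagens. Fibroblast markers had 4 of 13 means higher, with a median of -0.035. Twist2, a transcription factor of the dermis, differed by -0.33, Fn1, the fibronectin gene, by 0.10 and Thy1 by -0.11 (limma adjusted p = 0.821, 0.848 and 0.857). All 10 smooth muscle and myofibroblast markers were higher in their KO mean, at a median of 0.12. The calponin gene Cnn1 differed by 0.37 (adjusted p = 0.821), and mean levels overlapped, from 8.81 to 9.08 over KO arrays and from 8.63 to 9.03 over WT arrays. Of 10 endothelial markers, 2 had no overlap between genotypes, both higher in KO cells, where 0.541% of all genes were. These were Cdh5, the cadherin of vessel walls, at 3.84, 3.55, 3.65, 3.23 and 3.54 on KO arrays, against 2.94, 2.89, 2.96, 3.17 and 2.80 on WT arrays, and Esam, an adhesion molecule of endothelium. They differed by 0.61 and 0.18 (adjusted p = 0.628 and 0.824). The lowest KO value of Esam, 3.07, lay just above its highest WT value, 3.06. Both genes belonged to the 40% of genes with the lowest means, under 3.67 log2. Of the endothelial list, 3 markers had a lower mean, down to -0.19. Of 5 erythroid markers, 3 had an unadjusted p under 0.05, where 3.25% of all genes were higher at that threshold: Hba-x and Hbb-bh1, embryonic globin genes, and Slc4a1, the anion exchanger of red cells. They differed by 0.22, 0.23 and 0.28 (adjusted p = 0.821, 0.830 and 0.821). Hba-x averaged 2.40 log2 in KO and 2.18 in WT arrays, and Hbb-bh1 2.50 and 2.27. These means lie below the lower quartile of every array, 2.68 to 2.72, where signal may not differ from background. Slc4a1 averaged 4.09 and 3.81. Higher means were found for 4 of 6 bone, 7 of 10 endothelial, 6 of 10 keratinocyte, 5 of 10 skeletal muscle, 5 of 7 Schwann cell and melanocyte and 4 of 5 erythroid markers. Their medians were 0.034, 0.12, 0.044, 0.014, 0.11 and 0.22, and no marker of any list passed over all genes. The part of these cells in the collagen values was not tested.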

How the data were processed

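Total RNA of 10 samples of MEFs was labelled with biotin by the Affymetrix protocol and hybridised to 1 array each, per the labels. The deposited log2 values were used as given; their log2 scale was judged from their range, and the authors' summarisation, background correction and normalization are not given in the sources used here. Of 41345 probe sets, 23521 had 1 gene symbol in the platform annotation, 1814 had several and 16010 had none, and only the first were used. The KO minus WT difference of each gene came from limma 3.58.1 (lmFit, then eBayes; R 4.3.3), run over all 22180 genes, without filter or covariate, and adjusted by Benjamini-Hochberg with a threshold of 0.05. Exact two-sided permutation tests ran over the 252 ways to choose 5 of 10 arrays. Correlations of chain pairs were tested with 100000 permutations within genotype. The code of the fit was run on simulated data with independent noise for each gene and array. That run checks the code and does not show whether differences of the size found here could be detected. Promoter windows are from RefSeq, build GRCm38.p6.

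The members, lists and pairs were chosen with earlier results of these data known. Values of each array are given for the main chains of types I, III, V, IV and VI, for members with an unadjusted p under 0.05 and, to make up 4, those with the next smallest p-values; Col2a1 and Col10a1 were added after their values were seen. Of each list up to 3 genes with the smallest p-values may be named. Vim, Pdgfra, Lum, Sox5, Sox6 and Sox9 lie outside this rule and were named after their values were seen. Alternatives were quantile normalization, centring arrays on their medians, leaving out the dimmest 40% of genes, averaging or testing singly all probe sets, eBayes with trend and robust, array weights, a block for the replicate number, the Y-linked level as a covariate (3 of 4 genes), other thresholds and leaving out each array. Figures were drawn with matplotlib 3.10.9.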

Additional observations from a re-analysis of the deposited data

Results flagged for a closer look

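In 6 cases, of 88 groups of 5 arrays examined, a single array stood apart from the rest of its genotype by a gap of more than 0.71 of the group's range (Dixon's criterion). Chance flags about 1 in 20 groups, so such a number may come about without any cause. Col24a1 was lower on KO array 3, at 4.08 log2, than on the other KO arrays, at 4.44 to 4.58. Col4a2 was higher on WT array 5, at 7.41 log2, than on the other WT arrays, at 6.73 to 6.83. Col4a3 was higher on KO array 2, at 3.62 log2, than on the other KO arrays, at 3.22 to 3.32. Col19a1 was lower on WT array 1, at 2.62 log2, than on the other WT arrays, at 2.99 to 3.14. Col25a1 was lower on KO array 1, at 3.85 log2, than on the other KO arrays, at 4.28 to 4.37. Col15a1 was higher on WT array 4, at 4.01 log2, than on the other WT arrays, at 3.48 to 3.57.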

How the results depend on the processing

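No member passed the threshold in any of the 19 settings, and 0 genes at an adjusted p under 0.1. Unadjusted p-values under 0.05 belonged to 1326 genes and 2 members. Without WT array 5 a single gene of the array, no member, passed; with other single arrays left out the count was 0, so it ran from 0 to 1. The median difference of the members lay between 0.042 and 0.071 in the other settings, and between 0.039 (without WT array 3) and 0.090 (without WT array 2) with single arrays left out. Col23a1 had an unadjusted limma p under 0.05 in all 19 settings. Col6a4 had one in 13 and did not enter the fit without the dimmest 40% of genes, which is among the 19. The data give no pairing by replicate number that meets a correlation over 0.1 in every pair: deviations of same-numbered arrays correlated at 0.17, -0.045, -0.0041, -0.013 and 0.059, only arrays 1 and 5 correlated best with their own number, and Y-linked genes were high or low alike at each number. With a replicate block 0 members passed and the median was 0.054.

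Of 44 members, 27 kept their sign in all settings run on them. The sign turned, with no call involved, for Col1a2 under quantile normalization (0.00072) and with all probe sets averaged (0.0017), for Col3a1 with array weights (-0.022), for Col4a5 under quantile normalization (0.011) and with array weights (0.018), and for Col12a1 with median centring (-0.012). With single arrays left out the sign of 17 members turned, with ranges as follows: Col5a3 (-0.021 to 0.11), Col11a1 (-0.057 to 0.17), Col1a2 (-0.041 to 0.014), Col3a1 (-0.11 to 0.096), Col2a1 (-0.24 to 0.17), Col4a3 (-0.019 to 0.085), Col8a2 (-0.19 to 0.024), Col10a1 (-0.26 to 0.087), Col4a5 (-0.079 to 0.061), Col6a6 (-0.018 to 0.13), Col7a1 (-0.20 to 0.020), Col9a3 (-0.036 to 0.18), Col19a1 (-0.062 to 0.072), Col14a1 (-0.095 to 0.11), Col12a1 (-0.045 to 0.054), Col25a1 (-0.039 to 0.17), Col15a1 (-0.048 to 0.13).

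The relation of Col6a1 and Col6a3 passed under quantile normalization (r = 0.74) and with all probe sets averaged (r = 0.80). With single arrays left out, r ran from 0.58 to 0.80 for Col4a5 and Col4a6 and from 0.86 to 0.95 for Col4a1 and Col4a2, whose call was lost without WT array 5. It ran from 0.90 to 0.97 for Col3a1 and Col5a2 and from 0.87 to 0.93 for Col6a1 and Col6a2, and these calls held in all 13 settings tried. The causes were not tested. The settings for relations were chosen after the data were seen.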
